A study of Bos taurus with 4 samples.

Results

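Interleukins, chemokines, members of the tumour necrosis factor (TNF) superfamily and the receptors of all of these were read from an array of bovine probes hybridised with RNA of buffalo spermatozoa. The members were the 267 sample probes, of 51282 on the array, whose gene name began with IL, CCL, CCR, CXCL, CXCR, TNFSF or TNFRSF followed by a number, and they carried 148 of the 32429 gene names. By name they fell into 42 interleukins, 35 interleukin receptor chains, 17 CC chemokines, 9 CC receptors, 11 CXC chemokines, 7 CXC receptors, 11 ligands of the TNF superfamily and 16 receptors of the TNF receptor superfamily. The names were those of the array's design, so antagonists and binding proteins such as IL1RN and IL18BP stayed with the interleukins. Of 216 member probes with a RefSeq accession, 209 matched a current bovine gene and 10 of these now have another symbol, among them IL28RA (now IFNLR1), IL8 (now CXCL8) and 2 probes named CXCR2 (now CXCR1).

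The 4 samples were sperm RNA of Murrah buffalo (Bubalus bubalis) breeding bulls graded by field conception rate, 2 pools from high-fertile bulls and 2 pools from low-fertile bulls. Each pool joined equal amounts of RNA of 2 bulls, taken from spermatozoa selected on Percoll, and which bulls went into which pool was not given. RNA was copied from an oligo-dT primer, labelled with Cy3 and hybridised to 1 slide made for Bos taurus, so a base that differs between buffalo and cattle can lower a signal. The labels call every donor a male breeding bull and name no treatment, and ages were not given in the sources used here.

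Interleukins and chemokines are secreted messengers by which leukocytes and tissue cells recruit and instruct each other, and each acts through receptors on the surface of the responding cell. Ligands of the TNF superfamily are mostly held on the membrane, and their receptors signal survival, inflammation or, where they carry a death domain, apoptosis. Decoy receptors bind a ligand without passing on a full signal. In the male tract these messengers are known from seminal plasma, testicular macrophages and the epithelium of testis and epididymis, while mature spermatozoa make little or no new RNA and carry what remains from spermatogenesis.

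The results turn on single 60-base probes, and most of those that carried calls are printed here 5′ to 3′, with 1 more CXCR2 probe for comparison and the start of each probe in its transcript as the array's design gives it. All come from the deposited scanner output, and coordinates are those of Btau_3.1. No genome of that build was used, so exons, introns and untranslated regions were not annotated. The other called probes are given by position only, namely those of TNFSF9 (from base 2652, chr7:16505697-16505757, minus strand), TNFSF8 (from base 2297, chr8:109413526-109413585, minus strand), TNFRSF6B (from base 959, chr13:54730842-54730901, minus strand), IL6R (from base 2539, chr3:17504749-17504808, minus strand) and, as a second probe, TNFRSF10D (from base 4677, chr8:73378595-73378654, minus strand).
TNFSF12, from base 499, chr19:27793875-27793934, plus strand: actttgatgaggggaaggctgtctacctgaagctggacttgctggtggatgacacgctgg
TNFRSF25, from base 809, chr16:44114385-44114444, plus strand: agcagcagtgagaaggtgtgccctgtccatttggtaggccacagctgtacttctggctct
TNFRSF18, from base 364, chr16:48567533-48567764, plus strand: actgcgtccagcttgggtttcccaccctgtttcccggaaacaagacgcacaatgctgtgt
TNFRSF10D, from base 509, chr8:73386630-73386689, minus strand: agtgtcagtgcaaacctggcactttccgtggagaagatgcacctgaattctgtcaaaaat
IL17D, from base 477, chr12:36161203-36161262, minus strand: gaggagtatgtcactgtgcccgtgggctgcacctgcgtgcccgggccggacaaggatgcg
IL28RA, from base 1299, chr2:133184461-133184520, plus strand: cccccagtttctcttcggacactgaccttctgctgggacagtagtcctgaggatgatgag
IL17RD, from base 1629, chr22:44896015-44896074, plus strand: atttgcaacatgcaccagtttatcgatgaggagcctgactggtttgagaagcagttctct
CXCR2, from base 217, chr2:110592523-110592582, plus strand: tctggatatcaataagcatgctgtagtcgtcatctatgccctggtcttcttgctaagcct
CXCR2, from base 582, chr2:110617192-110617251, minus strand: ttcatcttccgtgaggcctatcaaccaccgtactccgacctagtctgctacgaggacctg

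The 3 probes next shown, as windows of 30 bases, are the brightest probes of IL1RL1 and IL1B, and they hold stretches that other probes of the array also hold. Capitals mark the longest stretch that the first IL1RL1 probe and the IL1B probe share, and in the second IL1RL1 probe the stretch of 20 bases found in the most probes of the array.
IL1RL1, from base 2106, chr11:7365962-7365991, plus strand: ggggtcgTGAAGTGACTTAGCAgcagcagc
IL1B, from base 1646, chr11:48249301-48249330, minus strand: gacTGAAGTGACTTAGCAtagcatagcatt
IL1RL1, from base 2022, chr11:7365874-7365903, plus strand: atgcaTTGGAGAAGGAAATGGCAACccact

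Member probes were well above background about as often as all probes of the array. The scanner software marked 111 and 117 of the 267 member probes as well above background on the arrays of high-fertile pools 1 and 2, and 127 and 68 on those of low-fertile pools 1 and 2. The shares were 41.6% and 43.8%, then 47.6% and 25.5%, against 45.4% and 45.3%, then 50.002% and 25.4% of all probes on those arrays. The array of low-fertile pool 2 therefore stood apart, and it did so for all probes as for the members. On all 4 arrays 64 member probes were well above background, which is 23.97% of them against 24.5% of all probes. On both arrays of at least 1 group it was 105 probes, or 39.3% against 41.0%, and these were the probes tested. Of the 105, both high-fertile arrays but not both low-fertile arrays let in 39 and the reverse held for 2, and a probe let in by 1 group alone is likelier to be higher there. At the other end, 126 member probes were not well above background on any array.

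By gene, 76 of 148 members had a tested probe and 48 had a probe detected on all 4 arrays. For 47 members every probe stayed dim, that is not well above background, on all 4 arrays. Among these were the interleukins IL4, IL5, IL7, IL15, IL17A, IL18 and IL33, the shared receptor chain IL6ST (gp130), the chemokine receptors CXCR4 and CCR3, the chemokines CXCL2, CXCL9 and CCL11, and the ligands TNFSF10 (TRAIL) and TNFSF11 (RANKL). Receptors of the TNF family were detected most often, with 19 of 30 probes tested (63.3%) and 15 on all 4 arrays. Their ligands followed with 10 of 17 probes (58.8%). Interleukin receptors had 29 of 66 (43.9%), CXC receptors 5 of 12 (41.7%), CC chemokines 12 of 35 (34.3%), interleukins 22 of 68 (32.4%) and CC receptors 5 of 16 (31.3%). CXC chemokines were detected least, with 3 of 23 probes (13.0%), namely 1 each of CXCL10, CXCL12 and CXCL16. The order of the classes is a description, since each probe binds with its own strength and classes had different numbers of probes.

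**Figure D1:**
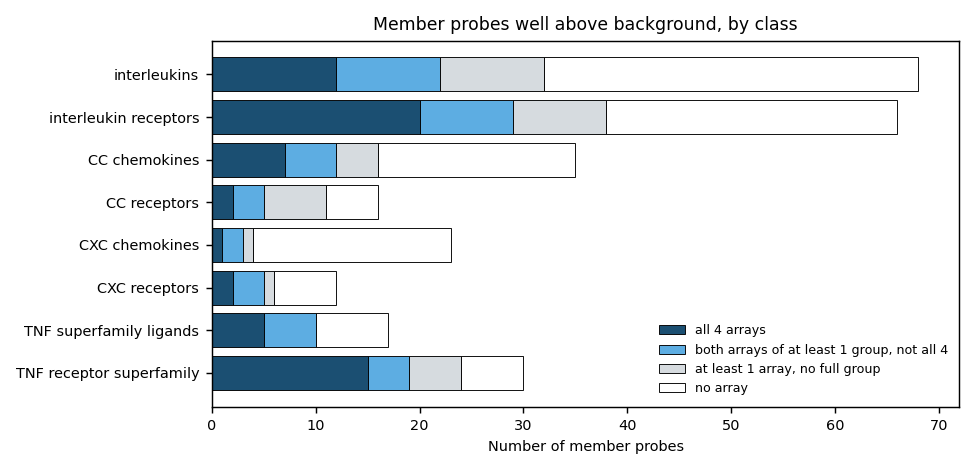
Number of member probes in each of the 8 classes (x axis), split by the arrays on which the scanner software marked them as well above background. TNF family receptors have the largest detected share, 19 of 30 probes, and CXC chemokines the smallest, 3 of 23.

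The 75th percentile of each array, to which signals were scaled, was a processed signal between 32.7 and 37.1. Each fertility group filled its own row of the slide, so slide row and fertility cannot be told apart. Fewer cells of a type and less RNA per cell cannot be told apart in pooled RNA either. An exact permutation test (2-sided) of 2 pools against 2 cannot go below p = 0.333, so single values have no test of their own and calls rest on limma, which borrows the spread across probes. The p-values set the group difference against the spread between the 2 pools of a group. They do not measure the spread between single bulls, and nothing in the labels says that the pools were processed apart.

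A minority of the transcripts tested differed between low-fertile and high-fertile pools. Read from the brightest probe, 5 of 76 genes were higher and 4 were lower in the low-fertile pools at an adjusted p below 0.05 (limma, Benjamini-Hochberg over all 21033 probes tested), and 23 had an unadjusted p below 0.05, against 40.8% of all genes. These counts were not stable. Leaving out high-fertile pool 1 gave 2 higher and 1 lower, and leaving out the other high-fertile pool gave 1 and 3. Leaving out low-fertile pool 1 gave 4 and 5, and leaving out the other low-fertile pool gave 2 and 5. The counts were 9 and 2 after a correction for base composition, and 0 and 0 without the filter on dim probes (15 and 7 unadjusted) or by the test named in the study's methods (10 and 7 unadjusted). The 9 genes called as reported are 11.8% of the members, while 25.9% of all 16549 genes tested passed, 9.60% higher and 16.3% lower. The median difference (low-fertile minus high-fertile, log2) was 0.11 over the members and 0.01 over all genes. In 59 of 76 members the difference was smaller than 0.5 on the log2 scale, which is 77.6% against 63.0% of all genes. The 2 low-fertile values lay wholly above or below the 2 high-fertile values in 45 of the 76 members (59.2%), against 69.3% of all genes. By probe, the values of the groups did not overlap in 69.1% of all probes tested, and 13 of 105 members passed, 7 higher and 6 lower, a share of 12.4% against 26.8% (9.22% higher and 17.6% lower) of all probes. Scaled to spike-ins instead of the 75th percentile, the median of all probes moved to -0.38 and the members split into 2 genes higher and 12 lower, so directions are relative to the scaling. Fitted among probes detected on all 4 arrays alone, 16 of 64 member probes passed, 12 higher and 4 lower, against 34.6% of all such probes (21.6% higher and 12.9% lower).

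**Figure D2:**
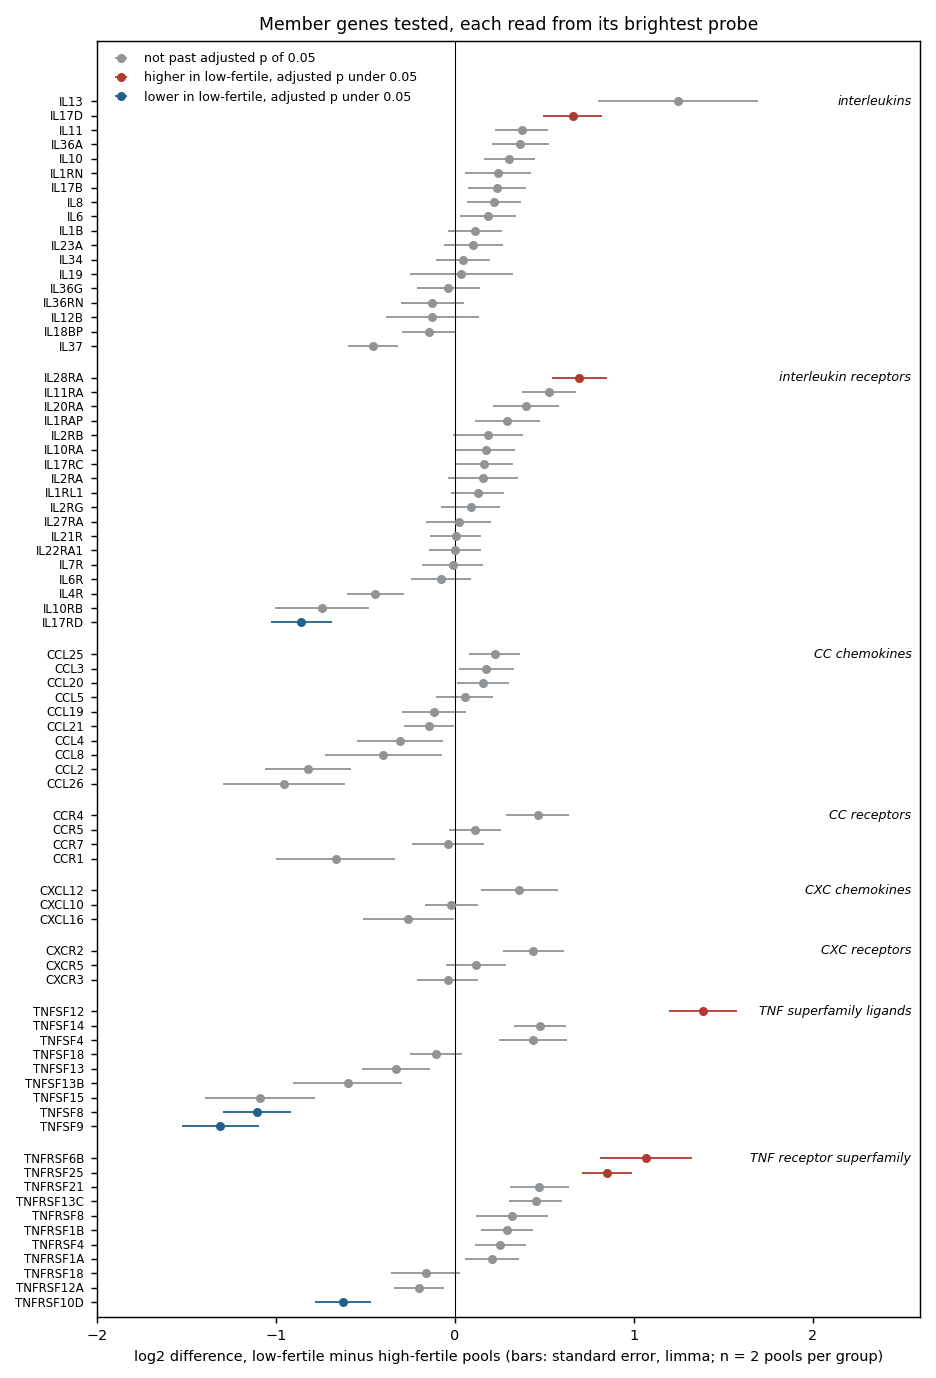
Log2 difference between low-fertile and high-fertile pools for the 76 member genes tested, each from its brightest probe and grouped by class; bars are the standard error of the limma fit (2 pools per group). Most genes lie within 0.5 of 0, and 5 are called higher and 4 lower (11.8%, against 25.9% of all genes). Of these 9, 6 belong to the TNF family, in which 33.3% of ligands and 27.3% of receptors are called, near the share of all genes.

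Ligands of the TNF superfamily differed in both directions, with 1 of 9 higher and 2 lower and a median of -0.33. The share called, 33.3%, stands beside 25.9% of all genes, which at 9 genes is a difference of about 1 gene. In all 9 the normalised values of the groups did not overlap, as in 69.3% of all genes tested. TNFSF12 (TWEAK), a ligand that drives inflammation and tissue repair, had processed signals of 19.1 and 25.7 in high-fertile pools 1 and 2 and of 56.0 and 53.0 in low-fertile pools 1 and 2. Both low-fertile values were above both high-fertile values. The lowest value was not well above background, so the probe was tested through the low-fertile pair alone, where it is high, and its p is no independent support. The log2 difference was 1.38 ± 0.19 (SE, n = 2 pools per group, adjusted p = 0.00649, limma). Its receptor TNFRSF12A (Fn14) gave 79.3 and 76.8 against 67.2 and 60.7 (log2 difference -0.20 ± 0.14, adjusted p = 0.322, limma) by its brightest probe and 0.23 ± 0.19 (adjusted p = 0.402) by the other one tested, so its sign rests on the probe.

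TNFSF9 (4-1BB ligand), a costimulator of T cells, gave 238 and 166 (high-fertile) and 81.9 and 69.8 (low-fertile). The high-fertile values were the higher ones and differed from each other more than the low-fertile values did. The log2 difference was -1.31 ± 0.21 (adjusted p = 0.0106, limma). No level could be given for its receptor TNFRSF9, whose only probe stayed dim on all 4 arrays. TNFSF8 (CD30 ligand) gave 108 and 91.3 against 41.2 and 46.0, a log2 difference of -1.11 ± 0.19 (adjusted p = 0.0123, limma). This value came from 1 of its 3 probes, the one nearest the end of the transcript, and the other 2 were not well above background on any array. Its receptor TNFRSF8 (CD30) gave 34.1 and 28.4 against 44.8 and 29.9, with overlapping groups (log2 difference 0.32 ± 0.20, adjusted p = 0.281, limma).

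TNFSF15 (TL1A), on chromosome 8 like TNFSF8, gave 32.0 and 40.4 against 22.8 and 11.1. It did not pass (log2 difference -1.09 ± 0.31, adjusted p = 0.0510, limma). Its 2 low-fertile values were far apart and the lower one was not well above background, so it was tested through the high-fertile pair alone. The other ligands tested did not pass either. TNFSF14 (LIGHT) had a log2 difference of 0.47 (adjusted p = 0.0645, limma), and it passed among probes detected on all 4 arrays alone (0.0307). TNFSF4 (OX40 ligand) had 0.44, TNFSF18 (GITR ligand) -0.10 and TNFSF13 (APRIL), tested through the high-fertile pair alone, -0.33. TNFSF13B (BAFF) was not well above background on either low-fertile array and read 1.51-fold higher in the high-fertile pools (adjusted p = 0.197, limma).

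Among receptors of the TNF family, 2 of 11 genes were higher and 1 lower, with a median of 0.29, and the share called, 27.3%, was near the 25.9% of all genes. TNFRSF6B (decoy receptor 3), a soluble receptor that binds FASLG, TNFSF14 and TNFSF15, gave 23.7 and 25.3 (high-fertile) and 40.4 and 58.2 (low-fertile). The groups did not overlap, and the spread lay in the low-fertile pools. The log2 difference was 1.07 ± 0.26 (adjusted p = 0.0327, limma). TNFRSF25 (death receptor 3), the signalling receptor of TNFSF15, gave 24.3 and 24.4 against 44.1 and 38.9. The difference was 0.85 ± 0.14 (adjusted p = 0.0105, limma) by the probe from base 809 and -0.01 ± 0.19 (adjusted p = 0.986) by that from base 1322. Both receptors that bind TNFSF15 were thus called higher by their brightest probe, while the ligand's own difference did not pass.

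TNFRSF10D, known as a decoy receptor of TNFSF10, was among the brightest members. Its probe from base 4677 gave 10540.5 and 10798 (high-fertile) and 6417 and 6621 (low-fertile). Each pair was close together and the groups did not overlap, with a log2 difference of -0.62 ± 0.15 (adjusted p = 0.0361, limma). The probe from base 509, within the stretch printed above, gave 83.1 and 71.5 against 137 and 133. This was a difference of 0.89 ± 0.16 in the other direction (adjusted p = 0.0142, limma). Probes from bases 4323 and 4334, which overlap each other, gave 0.06 ± 0.15 and 0.08 ± 0.17. TNFRSF10D was the only member with probes called in both directions, so no single direction can be given for it. Both probes of its ligand TNFSF10 stayed dim on all 4 arrays.

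TNFRSF18 (GITR), a costimulatory receptor of T cells, was called by its less bright probe alone. Its probe from base 364 gave 23.1 and 23.1 (high-fertile) and 48.5 and 38.1 (low-fertile) (log2 difference 0.98 ± 0.15, adjusted p = 0.00833, limma). Its brightest probe, for which the design gives no coordinates, gave 31.5 and 43.6 against 32.9 and 29.6, with overlapping groups (-0.16 ± 0.19, adjusted p = 0.560). TNFRSF21 (death receptor 6), also one of the brightest members, gave 322 and 277 against 391 and 389. The groups did not overlap, but the difference of 0.47 ± 0.16 did not pass (adjusted p = 0.0867, limma). It passed among probes detected on all 4 arrays alone (0.0437) and with an intensity trend in the variance (0.0282), and the other tested probe of TNFRSF21 had a difference of -0.08 ± 0.14. The TNF receptors proper, TNFRSF1A and TNFRSF1B, had differences of 0.21 ± 0.15 and 0.29 ± 0.14 (adjusted p = 0.340 and 0.189, limma).

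Of the interleukins, 1 of 18 genes passed (5.56%, against 25.9% of all genes), and the median was 0.15. IL17D, a member of the IL17 family, gave 37.0 and 31.0 (high-fertile) and 51.7 and 49.0 (low-fertile). The groups did not overlap, with a log2 difference of 0.66 ± 0.16 (adjusted p = 0.0369, limma). IL13 gave 48.5 and 20.7 against 94.4 and 53.0, widely spread, and did not pass (adjusted p = 0.0923, limma). Its value in high-fertile pool 2 was not well above background, so it too was tested through the low-fertile pair alone. That IL13 probe is on the plus strand of chromosome 7, opposite to the strand of the other 2 IL13 probes.

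The anti-inflammatory cytokine IL10 gave 206 and 204 (high-fertile) and 242 and 234 (low-fertile). Its replicates were close and the groups did not overlap, but the difference of 0.30 ± 0.14 did not pass (adjusted p = 0.171, limma). The value listed for IL6 came from a probe on chromosome 8 whose accession is now named LOC517016. Both IL6 probes on chromosome 4, which match the current IL6, were not well above background on any array, and no level could be given for that gene. IL8, a chemoattractant of neutrophils, gave 40.3 and 36.9 against 43.1 and 41.5 (0.22 ± 0.15, adjusted p = 0.318, limma).

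Interleukin receptors had 1 of 18 genes higher and 1 lower (11.1% called, against 25.9% of all genes), with a median of 0.11. IL28RA, the ligand-binding chain of the receptor for type III interferons, gave 23.5 and 23.5 (high-fertile) and 35.3 and 36.2 (low-fertile). The groups did not overlap, although the value of low-fertile pool 2 was not well above background. The log2 difference was 0.69 ± 0.15 (adjusted p = 0.0264, limma). Its partner chain IL10RB, which also serves the IL10 receptor, gave 45.3 and 60.9 against 39.1 and 22.5 (-0.74 ± 0.26, adjusted p = 0.0907, limma), the last not well above background, so that it was tested through the high-fertile pair alone.

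IL17RD (SEF), known as a feedback inhibitor of fibroblast growth factor signalling, gave 26.1 and 22.5 in the high-fertile pools. In the low-fertile pools it read 12.4 and 12.8, neither well above background. The fitted adjusted p was 0.0185 (limma), but the probe was tested through the high-fertile pair alone, where it is high, so that p is no independent support. The signal read 1.81-fold higher in the high-fertile pools, as the mean signal over that of the dim pair. Both dim values lay above the lowest value marked well above background on their array, so this fold is no lower bound. The same holds for the other folds given here against a dim pair. Its second probe stayed dim on all 4 arrays.

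IL6R, the ligand-binding chain of the IL6 receptor, was called by 1 of 2 probes. That probe, from base 2539, gave 39.9 and 54.8 (high-fertile) and 14.7 and 9.27 (low-fertile), the latter not well above background. It read 3.78-fold higher in the high-fertile pools (adjusted p = 0.00520, limma), and like that of IL17RD it was tested through the high-fertile pair alone. The brighter one, from base 1040, gave 53.6 and 51.0 against 55.2 and 39.6, and the groups overlapped (-0.08 ± 0.17, adjusted p = 0.759). All 3 probes of IL6ST, the chain that passes the signal of IL6 and IL11 into the cell, were not well above background on any array.

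IL11RA, the receptor chain for IL11, was one of the brightest members and behaved alike on both probes. Starting at base 1544, the brighter probe gave 568 and 557 (high-fertile) and 764 and 761 (low-fertile), a log2 difference of 0.53 ± 0.15 (adjusted p = 0.0525, limma). Starting at base 377, the other gave 35.7 and 40.6 against 51.2 and 55.0, a difference of 0.56 ± 0.17 (adjusted p = 0.0614). Groups did not overlap on either probe, neither passed, and among probes detected on all 4 arrays alone both did (adjusted p = 0.0233 and 0.0275, limma). The ligand IL11 gave 36.2 and 33.5 against 47.1 and 38.5 (0.37 ± 0.15, adjusted p = 0.117).

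No chemokine passed and no chemokine receptor passed by its brightest probe. In limma, 0 of 10 CC chemokines, 0 of 4 CC receptors, 0 of 3 CXC chemokines and 0 of 3 CXC receptors were called, while 2, 1, 0 and 1 of them had an unadjusted p below 0.05. Over all genes 25.9% were called and 40.8% had an unadjusted p below 0.05, and classes this small can show little against such shares. Their medians were -0.13, 0.04, -0.02 and 0.12. Among the chemoattractants, CCL26, known to act on eosinophils, gave 43.4 and 21.9 against 14.7 and 15.2, the latter not well above background. It did not pass (1.94-fold higher in the high-fertile pools, adjusted p = 0.0913, limma), and its highest value had 2 bright neighbouring spots. CCL2, known to act on monocytes, gave 22.0 and 30.1 against 17.3 and 10.9 (-0.82 ± 0.24, adjusted p = 0.0566). Its lowest value was not well above background, and it was likewise tested through the high-fertile pair alone.

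CCR4, a receptor of T cells, gave 42.2 and 43.2 against 52.0 and 59.0 with groups apart (0.46 ± 0.18, adjusted p = 0.108, limma), while its other tested probe had a difference of -0.21 ± 0.16 (adjusted p = 0.379). CXCR2 depended on the probe. Its probe from base 217 gave 40.1 and 50.7 against 59.8 and 55.3 (0.44 ± 0.17, adjusted p = 0.114). Another, from base 582, gave 26.5 and 23.4 against 15.4 and 12.9, of which the low-fertile values were not well above background. It read 1.66-fold higher in the high-fertile pools (adjusted p = 0.0214, limma) and was tested through that pair alone. The accession of that probe now names CXCR1, the sister receptor for IL8, and the 2 probes lie on opposite strands of chromosome 2, so the name CXCR2 covers probes of 2 genes.

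**Figure D3:**
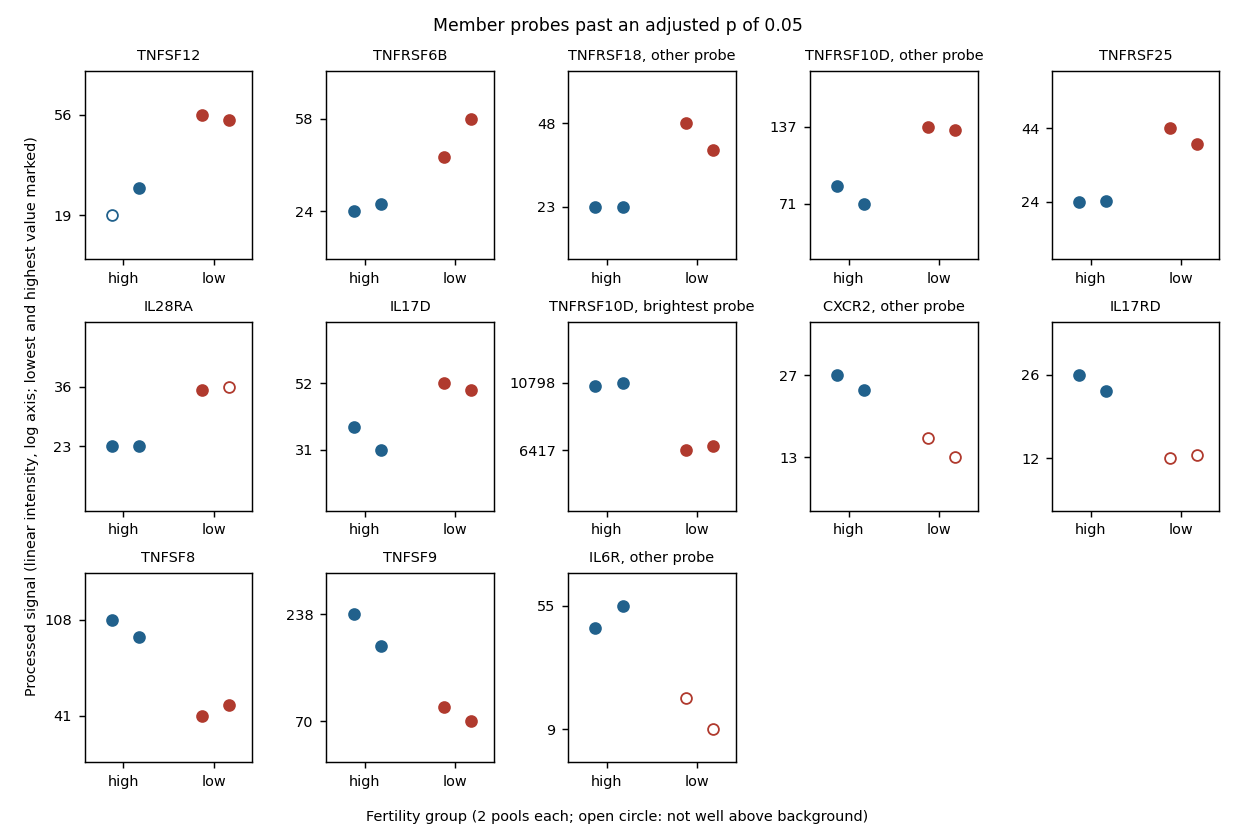
Processed signal (log axis, lowest and highest value marked) of the 13 member probes called, in the 2 high-fertile and the 2 low-fertile pools; open circles are not well above background. The groups are apart in every panel, and in IL17RD, IL6R and CXCR2 both low-fertile values are open.

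The brightest members by mean normalised signal were IL1RL1, TNFRSF10D, IL1B, IL11RA and TNFRSF21, of which TNFRSF10D alone was called. This order ranks single probes, not RNA amounts. IL1RL1 (ST2), the receptor of IL33, gave 53477 and 48429 (high-fertile) and 53886 and 50871 (low-fertile) on its probe from base 2106. The groups overlapped and the difference was 0.13 ± 0.15 (adjusted p = 0.557, limma). A second probe, from base 2022, gave 23838 and 23811 against 28744 and 28277 (0.34 ± 0.15, adjusted p = 0.137). The one from base 1246, whose coordinates span 44563 bases, gave only 22.4 and 31.3 against 41.2 and 32.8 (0.56 ± 0.20, adjusted p = 0.0950, limma). Levels of different probes cannot be set against each other as RNA amounts, and no level of IL1RL1 is drawn from the first 2 probes.

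Those bright probes share sequence with other parts of the array. The probe from base 2022 shared a run of at least 20 bases, on either strand, with 15 probes of 10 other gene names, the longest run being 41 bases, and all 15 were well above background on all 4 arrays. That from base 2106 did so with 3 other probes, again all detected on all 4 arrays. The stretch TGAAGTGACTTAGCA, searched on both strands, is in 3 of 51282 probes (0.00585%), namely that of IL1RL1, that of IL1B and 1 other. The stretch TTGGAGAAGGAAATGGCAAC is in 10 probes (0.0195%), 6 on the same strand and 4 on the reverse. All 3 and all 10 were detected on all 4 arrays, against 24.5% of all probes. Stretches of this kind are known from the interspersed repeats of ruminants, a reading from general knowledge, since no repeat annotation was used here. They were chosen after the bright signals were seen, and the part of shared sequence in these signals was not tested.

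The IL1B probe holding the first stretch gave 759 and 790.5 (high-fertile) and 786 and 791 (low-fertile), with overlapping groups (0.11 ± 0.15, adjusted p = 0.606, limma). The other 3 probes of IL1B, a central inflammatory cytokine, read between 20.3 and 59.1 over all arrays. Their differences were -0.21, -0.21 and 0.61, none of which passed. IL1RN, the natural antagonist of IL1B, had a difference of 0.24 ± 0.18 (adjusted p = 0.370). No probe of the receptor IL1R1 was well above background on both arrays of a group. The accessory chain IL1RAP, shared by IL1R1 and IL1RL1, gave 56.3 and 45.4 against 58.1 and 58.6 (0.29 ± 0.18, adjusted p = 0.271, limma). The ligand IL33 stayed dim on all 4 arrays.

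**Figure D4:**
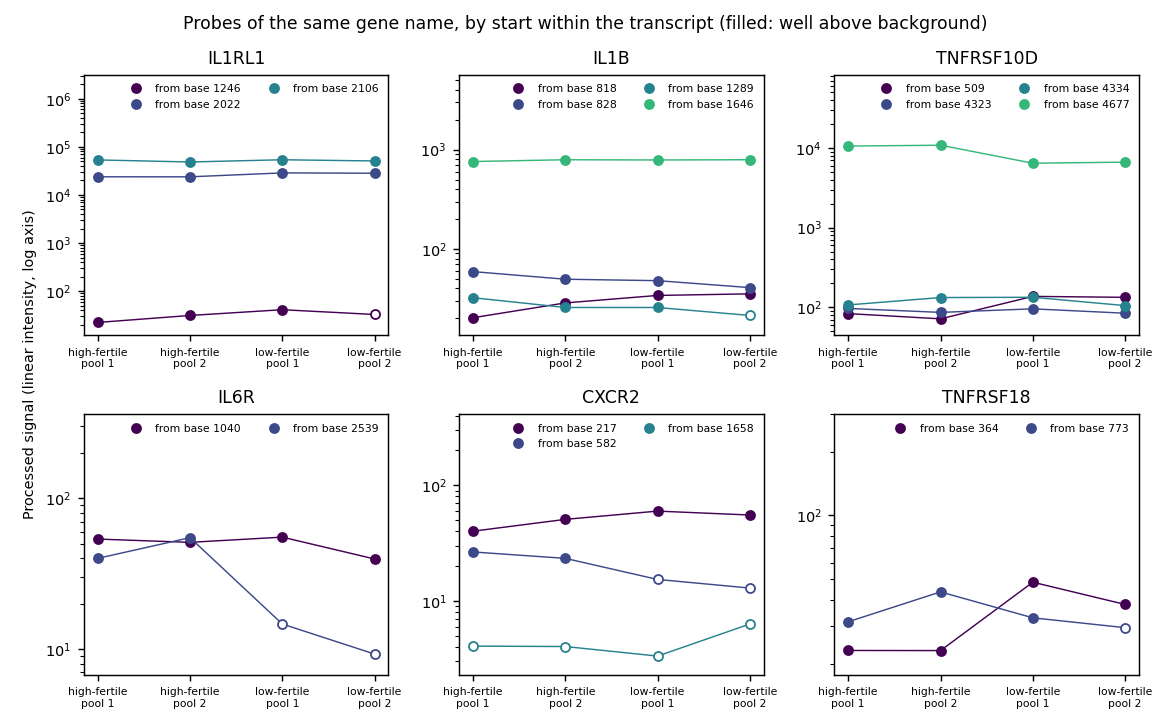
Processed signal (log axis) by array for all probes of 6 member names, each line a probe named by its start in the transcript; filled points are well above background. IL1RL1 has 2 probes at 23811 or more on every array and 1 at 41.2 or less. In IL1B, TNFRSF10D, CXCR2 and TNFRSF18 probes of the same name differ in the sign of the difference, and in IL6R they differ in its size.

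Probes of the same name did not always go together. Of 22 members with at least 2 tested probes, 12 (54.5%, against 44.9% of all 3129 such genes) had probes that differed in the sign of the difference, some by values near 0, 5 had some but not all probes called, and 1 (TNFRSF10D) had calls in both directions. IL4R, with 4 tested probes, ran from -0.44 ± 0.16 to 0.37 ± 0.21, and none passed. Among probes detected on all 4 arrays alone, the probe at -0.44 did pass (adjusted p = 0.0466, limma). TNFRSF13C (BAFF receptor) had differences of 1.32 ± 0.44 and 0.45 ± 0.15, neither of which passed. The first rested on a value of 83.4 in low-fertile pool 2 with 3 bright neighbouring spots. The second passed among probes detected on all 4 arrays alone (adjusted p = 0.0364, limma).

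Base composition moved with the difference. Over all probes tested, the median log2 difference was -0.68 in the 3611 probes with at most 24 G or C bases among 60, -0.13 in the 8978 probes with 25 to 29, and 0.23 in the 8444 probes with at least 30. Among member probes the medians were -0.12 (14 probes), 0.01 (46 probes) and 0.16 (45 probes). Called members had a median of 33 such bases when higher and 24.5 when lower, against 33 and 25 over all called probes. The median for probes of like composition was then subtracted on each array, a setting chosen after seeing the data. TNFSF12 (1.14, adjusted p = 0.0198), TNFRSF25 (0.61, 0.0343), TNFSF8 (-0.996, 0.0256) and IL17RD (adjusted p = 0.0344) still passed in limma. TNFSF9 (-0.76, adjusted p = 0.0697), TNFRSF6B (0.84, 0.0695), IL28RA (0.45, 0.0745), IL17D (0.24, 0.277) and TNFRSF10D by its brightest probe (-0.07, 0.752) did not. The called probes of IL6R (adjusted p = 0.0275), CXCR2 (0.0160), TNFRSF18 (0.74, 0.0306) and TNFRSF10D from base 509 (0.98, 0.0177) also still passed. TNFSF12, IL17RD and the IL6R and CXCR2 probes were let into the test by the pair in which they are high, so that their passing here adds no support. IL11RA (0.62, adjusted p = 0.0385) and IL1B (0.77, 0.0256) passed under this setting but not in the values above, and IL1RL1 turned to -0.11 without passing.

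**Figure D5:**
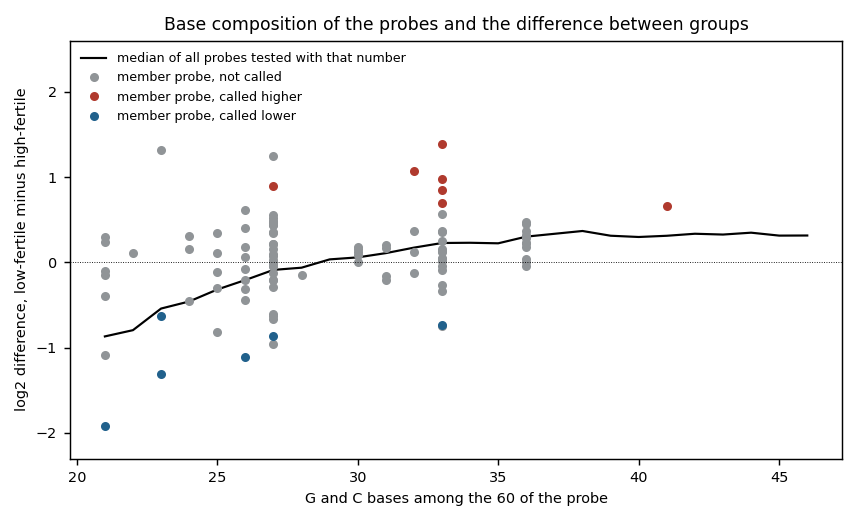
Log2 difference (low-fertile minus high-fertile) of the 105 member probes tested against the number of G and C bases among the 60 of the probe; the line is the median of all probes tested with that number. The line lies at -0.87 for 21 such bases and at 0.23 for 33, and called members have a median of 33 when higher and 24.5 when lower.

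Each pool was also left out in turn, with the lone pool of its group assumed to vary like the others. TNFSF12, TNFSF9, the IL6R probe from base 2539 and the TNFRSF18 probe from base 364 passed in all 4 such limma fits. For TNFSF12 and that IL6R probe this adds no support, since each was let into the test by the pair in which it is high. TNFSF8 did not pass without high-fertile pool 1 (adjusted p = 0.0628). TNFRSF25 did not pass without high-fertile pool 1 or 2 (0.0563 and 0.0596). The TNFRSF10D probe from base 509 did not pass without high-fertile pool 2 (0.0781) or low-fertile pool 2 (0.0504). TNFRSF6B (0.116, 0.105 and 0.0537), IL28RA (0.103, 0.112 and 0.0832) and the CXCR2 probe from base 582 (0.108, 0.0623 and 0.0676) did not pass without high-fertile pool 1, high-fertile pool 2 or low-fertile pool 2. IL17RD (0.0924, 0.0531 and 0.0542) and the brightest TNFRSF10D probe (0.127, 0.140 and 0.0966) did not pass without high-fertile pool 1, high-fertile pool 2 or low-fertile pool 1. IL17D passed in none of the 4, with adjusted p from 0.0669 to 0.168.

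Other ways of processing the values also ended calls in limma. With spike-ins, IL28RA (0.32, adjusted p = 0.102), IL17D (0.29, 0.199), TNFRSF6B (0.70, 0.0735) and the TNFRSF10D probe from base 509 (0.52, 0.05003) did not pass. With normexp background correction, IL28RA (0.14, adjusted p = 0.106), IL17RD (0.0667) and the CXCR2 probe from base 582 (0.0641) did not pass. With quantile normalization it was IL17RD (0.0591) and the brightest TNFRSF10D probe (-0.47, adjusted p = 0.0582). With each gene read as the median of its probes, IL17RD (adjusted p = 0.658), TNFRSF25 (0.42, 0.137) and IL17D (0.66, 0.0611) did not pass. TNFRSF10D (0.36, adjusted p = 0.153, limma) and TNFSF8 (0.50, 0.328) turned their sign and lost their calls there. The median of TNFSF8 took in probes not well above background on any array. An intensity trend in the variance ended the call of the CXCR2 probe from base 582 (0.0574).

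Genes of the same pathways outside the name rule, from other cytokines and receptors to kinases and transcription factors, were read in the same fit. Of 119 listed, 111 were on the array and 55 were tested, of which 6 were higher and 3 lower, a share of 16.4% against 25.9% of all genes, with a median of 0.10. TYK2, a Janus kinase that serves many interleukin receptors, gave 8359 and 8495 (high-fertile) and 14265 and 13601 (low-fertile) (0.81 ± 0.14, adjusted p = 0.0131, limma). SOCS1, a feedback inhibitor of Janus kinases, gave 211 and 205 against 406 and 406 (1.05 ± 0.15, adjusted p = 0.00732). RELB, a subunit of NF-kappaB, gave 91.4 and 93.2 against 179 and 183 (1.06 ± 0.15, adjusted p = 0.00758). In all 3 the groups were apart and the pools of a group were close. Every gene of this list was read from its brightest probe alone, and single calls under other settings are not given for it.

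The other higher genes were CRLF2 (0.69), MAP3K7 (0.59) and RELA (0.61). RIPK1, an adaptor kinase below TNF receptors, gave 241 and 293 (high-fertile) and 88.7 and 74.7 (low-fertile) (-1.62 ± 0.16, adjusted p = 0.00324, limma). SOCS5 gave 77.4 and 91.9 against 28.9 and 17.1 (-1.84 ± 0.23, adjusted p = 0.00532). IRAK4, a kinase below IL1 receptors, gave 24.7 and 24.9 against 16.0 and 14.5 and was called lower too (adjusted p = 0.0280), though its low-fertile values were not well above background. SOCS5 and IRAK4 were tested through the high-fertile pair alone, while MAP3K7, a kinase below both receptor families, was among the higher genes.

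Markers of other cells were read because leukocytes make most of these messengers. Of 24 leukocyte markers, 14 were well above background on all 4 arrays, 19 were tested and the median was 0.06. Their summed processed signal was 15285 to 16128 in the high-fertile pools and 16595 to 16994 in the low-fertile pools, of which PTPRC and CD3D, called in opposite directions, made up the greater part on every array. PTPRC (CD45) was higher in the low-fertile pools (6981 and 7126 against 11503 and 11388, 0.78 ± 0.15, adjusted p = 0.0160, limma). CD3D was lower (4982 and 5426 against 2271 and 2470, -1.05 ± 0.17, adjusted p = 0.0102). CD3G, another chain of the CD3 complex, had a difference of 0.17 (adjusted p = 0.413), and CD3E, CD8A and S100A9 stayed dim on all 4 arrays.

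Of 20 sperm markers, 5 (PRM1, TNP1, ODF1, ACR and CATSPER1) were well above background on all 4 arrays and 5 (AKAP3, AKAP4, SMCP, PGK2 and LDHC) on none. Of 8 tested, PRM1 alone was called (12.5%, against 25.9% of all genes), and 3 had negative differences. PRM1, a protamine, gave 46.7 and 46.5 against 71.6 and 68.6 (0.67 ± 0.14, adjusted p = 0.0231, limma). The summed signal of the sperm markers was 944 to 1100.02 in the high-fertile pools and 899.9 to 1114 in the low-fertile pools. The upper ends held probes bright on 1 array alone, PRM2 at 179.9 in high-fertile pool 1 (at most 14.6 elsewhere) and PRM3 at 168 in low-fertile pool 1 (at most 16.1 elsewhere). Of 11 epithelial markers 8 were tested and none passed, with 2 at an unadjusted p below 0.05. Of red cell markers 3 were tested. HBB was higher (1.24), tested through the low-fertile pair alone, while HBA (-0.17) and AHSP (0.24) did not pass. None of 3 endothelial markers passed in limma, 0 of them at an unadjusted p below 0.05. Of 7 Sertoli and Leydig cell markers tested, STAR alone was called, as higher (0.79). The median of the 7 was 0.09, and 3 of them had negative differences. The part of other cells in the results for the members was not tested.

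A few member probes were bright on 1 array alone and were not tested. CCL4 had one at 700.3 in low-fertile pool 1 and at most 9.58 on the other arrays, where 5 of its 6 neighbouring spots were also bright on that array. TNFRSF12A had such a probe at 401 in high-fertile pool 1, with 2 bright neighbours, and IL26 at 123 in low-fertile pool 2, with 3. CCR7 and IL22 had probes at 45.5 and 12.9 in low-fertile pool 2, with 1 and 2 bright neighbours. The brightest probe of CCL4 was another one, which gave 168 and 155 (high-fertile) and 105 and 144 (low-fertile) (-0.31 ± 0.24, adjusted p = 0.377, limma).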

How the data were processed

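Sperm RNA of 4 pools was measured on a 1-colour array. The authors deposited linear intensities (Agilent Feature Extraction 11.5.1.1, background subtracted by that software) and a table of log2 values shifted by the 75th percentile of each array in GeneSpring GX, which served as an alternative. Spots marked as outliers were left out, log2 processed signals of a probe's spots were averaged, and the 75th percentile over sample probes was subtracted. A probe was well above background when at least 0.5 of its spots were marked so. limma 3.58.1 (R 4.3.3) was run without covariates on the 21033 probes so marked in both pools of either group, with Benjamini-Hochberg adjustment. No tested probe was saturated. Each gene was read from its probe with the highest mean normalised signal. On simulated data, 87% of 200 probes changed by 2 log2 units were recovered, and 5.43% of calls were false. Named members were, by brightest probe, up to 10 called in each direction and detected on all arrays, up to 5 in each direction detected in 1 group alone, the 5 brightest, those with probes called in opposite directions, and their ligands or receptors; other names were chosen after their values were seen. Members and lists were chosen with earlier results of these data known. The number of arrays limits the precision. Symbols were updated through RefSeq. Figures were drawn with matplotlib 3.10.9.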

Additional observations from a re-analysis of the deposited data

How the results depend on the processing

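With 2 pools a group, and most members, like most probes, dim on low-fertile pool 2, limits are those of signal over background. The values below set each setting against 5 genes higher and 4 lower (median log2 0.11), 7 probes higher and 6 lower, and 9 pathway genes called; the causes of the changes were not tested. Over single members, 209 values kept direction and side of the threshold, 70 lost and 10 gained a call, and 8 reversed.

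The methods' t-test called 0 genes and 0 probes after adjustment in either direction (10 genes higher and 7 lower, 13 probes higher and 9 lower unadjusted) and 0 pathway genes (13 unadjusted). Without the filter limma called 0 genes, 0 probes and 0 pathway genes (15 genes higher and 7 lower, 23 probes higher and 13 lower, 8 pathway genes unadjusted), with medians of 0.17 for genes, 0.17 for interleukin receptors, 0.36 for CXC chemokines, -0.041 for CXC receptors and -0.10 for TNF ligands.

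Spike-in scaling gave 2 genes higher and 12 lower (median -0.26), 3 probes higher and 15 lower, IL1B -0.26 and IL1RL1 -0.24, and medians of -0.22 (interleukins), -0.26 (their receptors), -0.50 (CC chemokines), -0.33 (CC receptors), -0.39 (CXC chemokines), -0.25 (CXC receptors), -0.70 (TNF ligands), -0.080 (TNF receptors), -0.18 (sperm markers) and -0.31 (leukocyte markers). Lower calls were 92.1% of all calls there, 65.6% in the values reported and 37.5% among probes detected on all 4 arrays.

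The GC correction gave 9 genes higher and 2 lower (median 0.023), 13 probes higher, IL1RL1 -0.11, and medians of -0.020 (interleukin receptors), 0.0085 (CC chemokines), 0.013 (TNF receptors) and -0.030 (leukocyte markers). Normexp gave a gene median of 0.027, 17 pathway genes, IL1RL1 -0.016, and medians of 0.052 (interleukins), 0.054 (their receptors), -0.10 (TNF ligands), 0.087 (TNF receptors), 0.027 (sperm markers) and -0.023 (leukocyte markers). Quantile normalization gave IL1RL1 -0.18 and interleukin receptors 0.062, and a percentile over probes detected on all arrays gave the latter 0.14.

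Probes detected on all 4 arrays gave a gene median of 0.17, 12 probes higher, and medians of 0.054 (CC chemokines), -0.10 (CC receptors), 0.28 (CXC receptors), -0.10 (TNF ligands) and 0.034 (sperm markers). The median over a gene's probes gave TNFRSF10D 0.36, TNFRSF21 -0.083, TNFSF8 0.50, interleukins -0.00059, CXC receptors -0.089, sperm markers 0.36 and leukocyte markers 0.10. An intensity trend gave 8 genes and 12 probes higher. Leaving out spots on bright patches gave 7 genes lower, CC chemokines -0.031 and sperm markers 0.034. Counting any positive and significant signal as detected gave 211 probes.

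Leaving out each pool gave 1 to 4 genes higher, 1 to 5 lower (median 0.09 to 0.12), 2 to 7 probes higher, 2 to 7 lower and 4 to 8 pathway genes. Medians ran from 0.12 to 0.21 (interleukins), 0.041 to 0.14 (their receptors), -0.22 to 0.028 (CC chemokines), -0.067 to 0.15 (CC receptors), -0.08 to 0.06 (CXC chemokines), 0.10 to 0.27 (CXC receptors), -0.52 to -0.16 (TNF ligands), 0.26 to 0.36 (TNF receptors), 0.10 to 0.34 (sperm markers) and 0.040 to 0.11 (leukocyte markers).

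With the replicate block, 5 genes were higher and 5 lower, and 8 probes higher and 7 lower; IL17D (adjusted p = 0.0526, limma) and the brightest TNFRSF10D probe (0.0516) did not pass. The samples share only a number, since the differences within the 2 groups correlated at 0.0055 over 21024 probes.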
